A study of Mus musculus with 4 samples.

Results

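DNA methylation in mammals is laid down by writers, recognised by readers and removed through erasers, and the transcripts of 9 such genes were followed across 4 libraries of human CD8+ T cells. The members were chosen by gene symbol for their known roles, with earlier results of these data known. Each matched exactly 1 of the 64253 gene rows in every count file, and all 9 had counts in all 4 libraries. They are the maintenance genes UHRF1, UHRF2 and DNMT1, the de novo methyltransferases DNMT3A and DNMT3B, the dioxygenases TET1, TET2 and TET3, and the methyl-CpG reader MBD2. Maintenance methylation copies the pattern of the parent strand after each round of DNA replication: UHRF1 recognises hemimethylated CpG and brings in DNMT1. De novo enzymes add methyl groups at new sites, and in CD8 T cells DNMT3A is known for silencing naive and memory genes in effector cells. TET enzymes oxidise 5-methylcytosine, which can then be lost through replication or base excision, and loss of TET2 in CD8 T cells is known to alter memory and effector fate.

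The cells were CD8+ T cells with high CD11a, an integrin chain of antigen-experienced T cells, sorted from the blood of patients given an antibody against the inhibitory receptor PD-1, with 3 weeks between doses and 4 doses in a cycle. Each of the 4 groups held 1 library: responder before, non-responder before, responder after and non-responder after therapy. All are human cells by the genes and the hg38 build, although the organism label names mouse. The treatment text places every collection after a cycle, in conflict with the group label, which was followed here. The names of both samples taken before therapy include the tag PD-1pos, which may mean a PD-1-positive gate, but the labels do not say. If a gate differed between times, it cannot be told apart from time. No label links a sample from before therapy to a patient sampled afterwards, so patient and time cannot be told apart either. Responder and non-responder libraries come from different patients, with 1 library per group, so response and patient cannot be told apart. With 1 library per group, a ratio of libraries has no replicate check and describes those libraries alone.

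Library totals ranged from 65500644 to 129773591 counts. CD8A and CD3E were abundant in each library, at 865 to 1561 CPM and 556 to 751 CPM. CPM is the usual depth-normalised count, here with library sizes scaled by TMM factors. Other cells' transcripts differed between libraries: the 11 monocyte and neutrophil markers summed to 145 CPM for the responder and 198 CPM for the non-responder before treatment, and to 1885 and 8810 CPM after therapy. The 6 epithelial markers summed to 158 CPM in the responder library before therapy and to between 2.39 and 8.48 CPM in the other libraries. In the epithelial list EPCAM had 0 counts outside that responder library. Summed markers of other blood cells ranged from 165 to 419 CPM for NK cells, 62.0 to 87.2 for B cells, 15.7 to 170 for platelets, 2.46 to 60.0 for dendritic cells, 2.85 to 22.004 for red cells and 25.2 to 129 CPM for CD4 and regulatory T cells. Mitochondrial counts made up 3.37 to 5.43% of the libraries. In bulk RNA, fewer cells of a type and less RNA per cell cannot be told apart.

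Compared per kilobase of the length that the files list as coding length, the members covered a wide range of levels. MBD2 had the highest median over the 4 libraries, 16.8 CPM per kb, followed by DNMT1 at 11.8, UHRF2 at 9.26 and TET2 at 5.75 CPM per kb. A lower tier held DNMT3A at 1.40, TET1 at 1.15, UHRF1 at 0.688, TET3 at 0.542 and DNMT3B at 0.0631 CPM per kb. The lowest TET2 level, 3.63 CPM per kb, lay above the highest DNMT3A level, 1.65 CPM per kb, whereas every other pair of neighbours in this order overlapped in range. MBD2, DNMT1 and UHRF2 therefore stood above the de novo enzymes in each library. UHRF1 stood above DNMT3A in the responder libraries, at 1.95 against 1.65 CPM per kb before and 1.18 against 1.02 after therapy. In both non-responder libraries UHRF1 stood below DNMT3A.

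**Figure D1:**
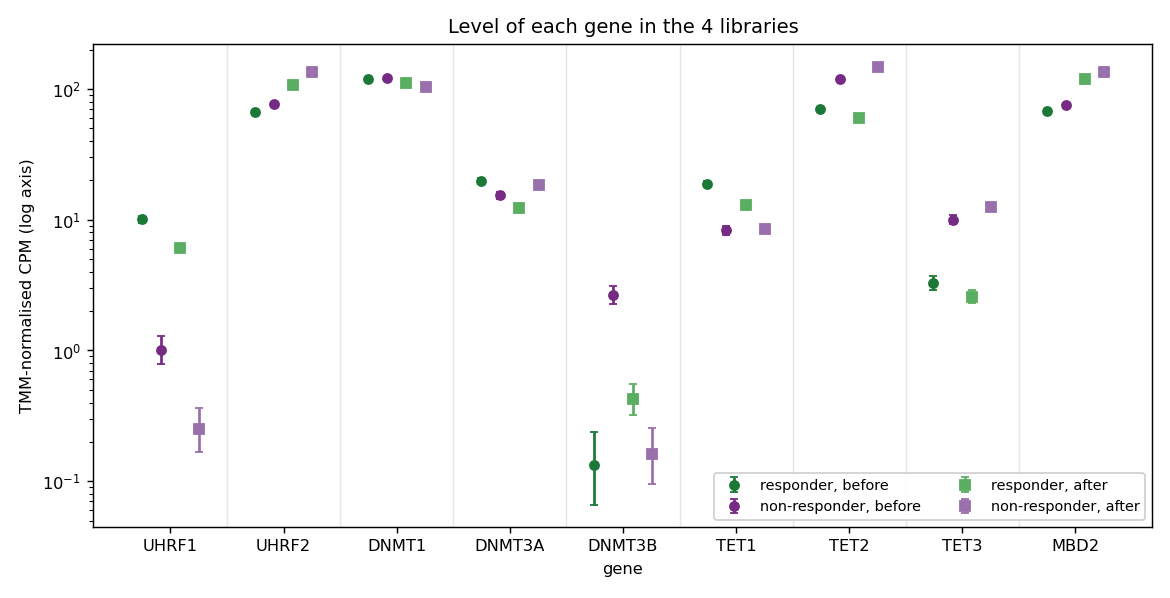
TMM-normalised CPM (log axis) of each of the 9 genes in the 4 libraries, with exact Poisson 95% intervals that cover counting error alone. UHRF1 lies at 10.1 and 6.07 CPM in the responder libraries against 1.012 and 0.25 CPM in the non-responder libraries, while DNMT1 stays between 104 and 121 CPM.

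UHRF1 (ENSG00000276043, chromosome 19: 4903080 to 4962154 on hg38) was the member with the widest spread. It had 837 counts in the responder and 66 in the non-responder library before treatment, and 773 and 28 counts after therapy. In CPM these were 10.1, 1.012, 6.07 and 0.25, so both responder libraries lay above both non-responder libraries without overlap. The same was true of 20.1% of the 18824 genes that reached 1 CPM in any library. The ratio of responder to non-responder was 9.93-fold before treatment, a log2 ratio of 3.30 with a 95% interval of 2.95 to 3.70, and 24.3-fold afterwards, a log2 ratio of 4.58 (4.06 to 5.20). Intervals on log2 ratios are exact conditional binomial intervals for counting error, and reads without molecular identifiers are not independent molecules. Epithelial markers moved with UHRF1 in the pair before therapy, where all 6 were higher in the responder. They summed to 2.39 and 2.41 CPM after therapy in responder and non-responder. CLDN4 had 1355 and 83 counts in the responder libraries before and after therapy and 0 in both non-responder libraries. CDH1 had 81 and 69 counts against 0. After therapy KRT8 and KRT18 were lower in the responder, KRT7 was higher on 8 against 3 counts, and EPCAM was at 0. The part of epithelial RNA in the UHRF1 difference was not tested.

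UHRF2 (ENSG00000147854, chromosome 9: 6413151 to 6507054), the paralog of UHRF1 that does not replace it in maintenance, did not share this pattern. It stood at 67.0 CPM for the responder and 77.0 CPM for the non-responder before treatment, and at 107 and 134 CPM after therapy. The responder was 1.15-fold and 1.26-fold lower, and both libraries from after therapy lay above both from before, as for 23.2% of genes. UHRF1 made up 22.4% of the summed UHRF1 and UHRF2 level per kilobase in the responder and 2.47% in the non-responder before therapy, and 9.87% and 0.358% after therapy.

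DNMT1 (ENSG00000130816, chromosome 19: 10133345 to 10231286), the maintenance methyltransferase, was the steadiest member, with 1.17-fold between its highest and lowest library. Its levels were 119 CPM for the responder and 121 CPM for the non-responder before treatment, and 112 and 104 CPM after therapy. Both libraries from after therapy lay below both from before, as for 21.2% of genes. For every 100 DNMT1 counts there were 8.44 UHRF1 counts in the responder and 0.837 in the non-responder library before treatment, and 5.42 and 0.241 after therapy. Such ratios within a library do not depend on scaling between libraries. The recruiting factor and the enzyme it recruits thus differed in how they varied over the same 4 libraries. DNMT1 overlaps the S1PR2 row and 1 unnamed transcript in the files' coordinates, whose levels reached 0.769 and 3.48 CPM, and the cDNA kit does not mark strand, so reads of overlapping genes cannot be told apart by it.

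The writers of new methylation did not separate responders from non-responders at both times. DNMT3A (ENSG00000119772, chromosome 2: 25227855 to 25342590) stood at 19.8 CPM for the responder against 15.3 CPM for the non-responder before treatment, a log2 ratio of 0.37 (interval 0.26 to 0.49). After therapy it stood at 12.2 against 18.3 CPM, a log2 ratio of -0.59 (interval -0.68 to -0.49). The order of the groups was thus reversed between times. DNMT3B (ENSG00000088305, chromosome 20: 32762385 to 32809356), a low transcript here, had 11 counts in the responder and 174 in the non-responder before therapy, and 54 and 18 after therapy. One library, the non-responder before therapy, held DNMT3B at 2.67 CPM, and the other three lay between 0.132 and 0.424 CPM. In the same library DNMT3B reached 4.06% of the summed DNMT level per kilobase, against at most 0.73% elsewhere. DNMT3L, the catalytically inactive cofactor of the de novo enzymes, had 0 counts in all 4 libraries, which allows up to 3 counts in each.

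The TET genes parted in opposite directions. TET1 (ENSG00000138336, chromosome 10: 68560656 to 68694482) stood at 18.7 CPM for the responder and 8.28 CPM for the non-responder before treatment, and at 13.0 and 8.42 CPM after therapy. Both responder libraries lay above both non-responder libraries, 2.26-fold before (log2 ratio 1.18, interval 1.04 to 1.32) and 1.54-fold after therapy (0.63, interval 0.51 to 0.74). TET2 (ENSG00000168769, chromosome 4: 105145875 to 105279816) went the other way, at 70.9 against 119 CPM before and 59.8 against 148 CPM following therapy. It was 1.68-fold lower in the responder before treatment, with a log2 ratio of -0.75 (-0.79 to -0.70), and 2.47-fold lower afterwards, with -1.31 (-1.35 to -1.27). TET3 (ENSG00000187605, chromosome 2: 73986404 to 74108176) followed TET2, at 3.29 against 10.0 CPM before and 2.58 against 12.6 CPM following therapy. Its responder levels were 3.04-fold lower before treatment, with a log2 ratio of -1.60 (-1.81 to -1.40), and 4.88-fold lower afterwards, with -2.28 (-2.46 to -2.11). For both TET2 and TET3 the responder libraries lay below the non-responder libraries with no overlap, as for 16.9% of genes. With 2 of 9 members apart in each direction, the count of members whose groups did not overlap is near these shares.

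The make-up of the TET transcripts differed accordingly. Per kilobase, TET1 made up 30.6% of the summed TET level in the responder and 10.0% in the non-responder before therapy, and 26.7% and 8.31% after therapy. TET2 was the most abundant TET gene in every library, at 65.3% and 80.9% before and 69.3% and 82.3% after therapy. TET3 held 4.07% and 9.15% before, and 4.01% and 9.40% after therapy. Counted within each library, 100 TET2 counts were matched by 26.4 TET1 counts (interval 24.99 to 28.0) in the responder before and 21.8 (20.6 to 22.9) in the responder after therapy. The non-responder libraries had 6.97 (6.38 to 7.61) before and 5.70 (5.33 to 6.08) after therapy. The summed TET level was 6.59 CPM per kb in the responder against 8.92 in the non-responder before, and 5.24 against 10.9 CPM per kb after therapy. TET1 overlaps the pseudogene COX20P1 in the files' coordinates, which stood at 1.07 to 3.99 CPM and was higher in the non-responder libraries, and TET2 overlaps TET2-AS1, at 0.33 to 2.85 CPM.

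**Figure D2:**
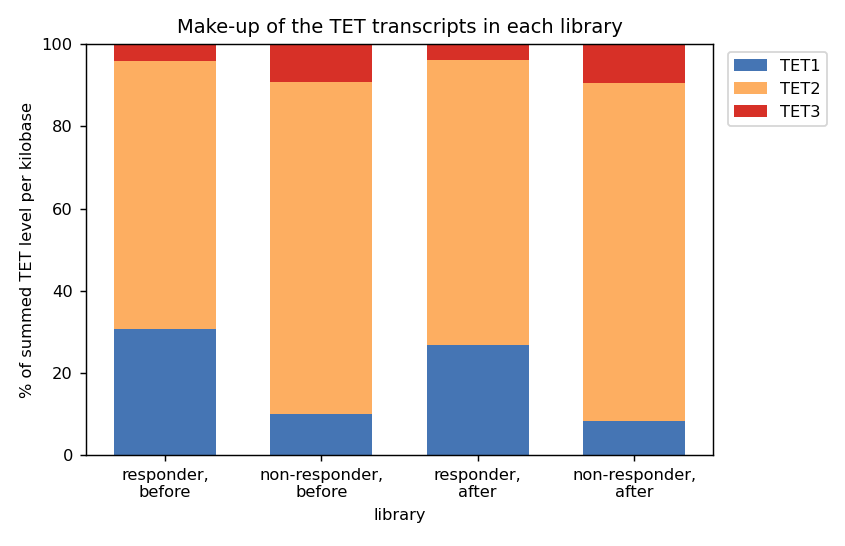
Share of each TET gene in the summed TET level per kilobase, one bar per library, each bar adding to 100%. TET1 takes 30.6% and 26.7% in the responder libraries against 10.0% and 8.31% in the non-responder libraries, and TET2 is the largest part of every bar.

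Monocytes and neutrophils also transcribe TET2, and most of their markers had the direction of TET2 in both pairs. Of 11 markers, 10 had the lower level in the responder before and after therapy, as did 29% of 15937 genes, with median log2 ratios of responder to non-responder of -0.43 before and -2.20 after therapy. Their sum before therapy was 145 against 198 CPM, where TET2 was already 1.68-fold lower in the responder. LYZ, the lysozyme gene of these cells, stood at 35.1 CPM in the non-responder before and 3631 CPM in the non-responder after therapy, while TET2 stood at 119 and 148 CPM. LYZ was at 8.25 CPM in the responder before therapy and 791 CPM after it, while TET2 was at 70.9 and 59.8 CPM. No marker of the list was at 0 counts in any library. The part of other cells' RNA in the TET2 and TET3 differences was not tested.

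MBD2 (ENSG00000134046, chromosome 18: 54151601 to 54224788), which brings the NuRD repressor complex to methylated CpG, differed little with response. It stood at 67.5 CPM for the responder and 75.6 CPM for the non-responder before treatment, and at 120 and 134 CPM after therapy. The responder was 1.12-fold lower at each time. Both libraries from after therapy lay above both from before, as for UHRF2, and the log2 ratio of after to before was 0.83 in the responder (interval 0.78 to 0.87) and 0.82 in the non-responder (0.78 to 0.87).

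**Figure D3:**
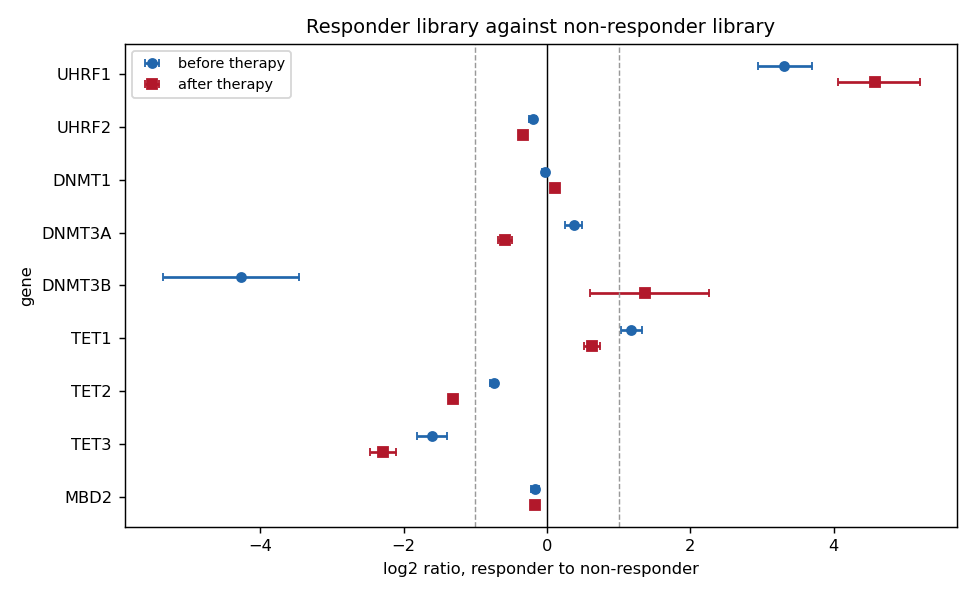
Log2 ratio of responder to non-responder for each gene before therapy (circles) and after therapy (squares), with 95% intervals for counting error and dashed lines at 2-fold. UHRF1 and TET1 lie to the right and TET2 and TET3 to the left at both times, while DNMT3A and DNMT3B lie on opposite sides of 0 at the 2 times.

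The members were then read against all genes. Before therapy 2 of 9 members, UHRF1 and TET1, exceeded the non-responder level at least 2-fold, as were 15.8% of the 17592 genes that reached 1 CPM in one library or the other. DNMT3B and TET3 were at least 2-fold lower, against 14% of genes. After therapy DNMT3B was under 1 CPM in both libraries, and of the 8 members left UHRF1 was at least 2-fold higher (7.99% of 17169 genes) and TET2 and TET3 were at least 2-fold lower (14% of genes). At both times UHRF1 was at least 2-fold higher, as were 2.83% of 15937 genes, and TET3 at least 2-fold lower, as were 3.73%. The members' median log2 ratio of responder to non-responder was -0.16 before and -0.25 after therapy, against 0.04 and 0.02 for all genes. These median shifts are small, and the count of members at 2-fold on either side before therapy is near the background.

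The additive model took response and time as factors over all 4 libraries. In it edgeR's quasi-likelihood test called 0 of 24113 genes for response at an adjusted p under 0.05, so 0% of genes and 0 members. At an unadjusted p under 0.05 the same test gave 2119 genes, among them UHRF1, TET2 and TET3. The fitted log2 ratio of UHRF1 was 3.94 ± 0.651 (SE) with an adjusted p of 0.558 by edgeR. For TET2 it was -1.03 ± 0.231 and for TET3 -1.95 ± 0.453, each with the same adjusted p by edgeR. TET1, at 0.90 ± 0.365, had an adjusted p of 0.576 by edgeR. DESeq2 on the same design called 903 genes, or 3.74%, and among the members UHRF1 (adjusted p = 2.26e-05), TET2 (adjusted p = 0.0138) and TET3 (adjusted p = 0.0154). limma-voom called 0 genes. The model has 1 residual degree of freedom, and an exact permutation of 2 against 2 libraries could not go below p = 0.333.

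Whether UHRF1 followed cell division was examined with 22 DNA replication and cell division genes. Their summed level was 602 CPM for the responder and 529 CPM for the non-responder before treatment, and 561 and 299 CPM after therapy. The median log2 ratio of responder to non-responder was 0.11 before therapy over 22 genes and 0.95 after therapy over 21, while the UHRF1 ratios were 3.30 and 4.58. Of 21 genes measured at both times, 14 had the higher level in the responder at both, as did 35.6% of 15937 genes, and MCM3 and CDC6 were at least 2-fold higher at both. MCM3, a subunit of the replicative helicase, stood at 110 against 44.7 CPM and 121 against 48.9 CPM. DESeq2 called MCM3 alone of this list for response, and edgeR called 0 of the list.

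MKI67, the classical marker of dividing cells, did not have the order of UHRF1. It stood at 18.1 CPM for the responder against 36.5 CPM for the non-responder before treatment, and at 8.91 against 0.402 CPM after therapy. For every 100 MKI67 counts there were 55.5 UHRF1 counts (interval 51.0 to 60.5) in the responder before, 68.1 (62.1 to 74.7) in the responder after and 62.2 (37.4 to 102) in the non-responder after therapy. The non-responder library before therapy had 2.77 (2.13 to 3.54). That library thus held the most MKI67 of the 4, little UHRF1 and the most DNMT3B. Against TOP2A, which untangles DNA in mitosis, UHRF1 had 92.7 and 86.6 counts per 100 in the responder libraries before and after therapy. The non-responder libraries had 8.24 and 9.86. Per 100 MCM3 counts the values were 9.15 and 5.01 against 2.26 and 0.512, and per 100 PCNA counts 16.8 and 10.4 against 1.81 and 0.793. Against TOP2A, MCM3 and PCNA both responder libraries thus lay above both non-responder libraries. Against MKI67 they did not, so the choice of reference gene matters for this ratio.

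**Figure D4:**
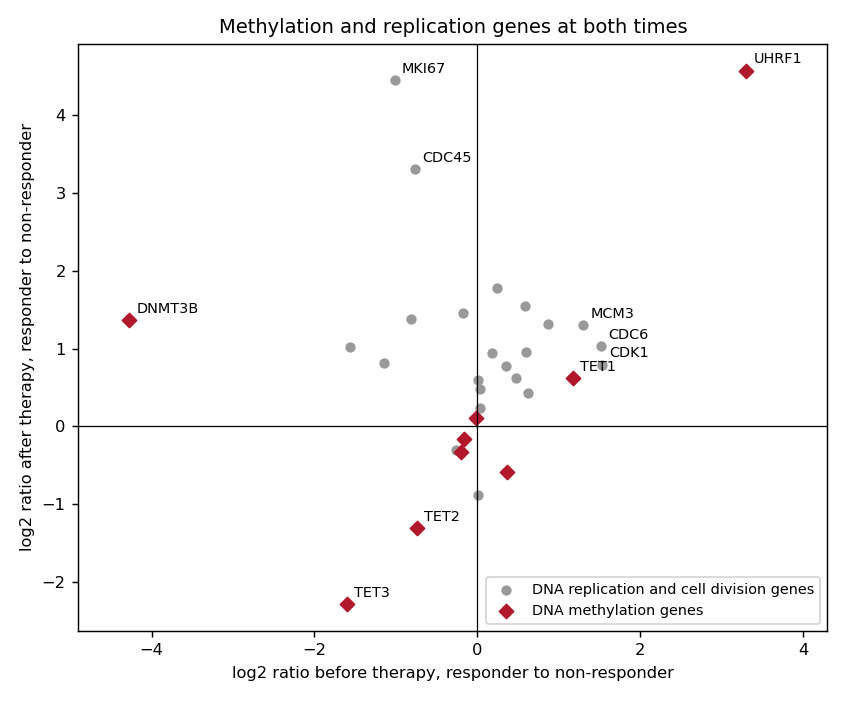
Log2 ratio of responder to non-responder before therapy (horizontal) and after therapy (vertical) for the 9 methylation genes (diamonds) and 22 replication and division genes (circles). UHRF1 lies at 3.30 and 4.58, whereas MKI67 lies at -1.01 and 4.45.

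Partners of UHRF1 and DNMT1 in maintenance had smaller ratios than UHRF1. The widest in the mean over both times was that of SUV39H1, a histone H3 lysine 9 methyltransferase. It stood at 25.4 against 11.8 CPM and 21.7 against 13.5 CPM. After therapy its log2 ratio of 0.68 lay below that of PCNA, 0.88. Of the 13 listed, 12 were detected, and their median log2 ratio of responder to non-responder was 0.03 before and 0.44 after therapy. HELLS, the remodeller that opens nucleosomes for methylation, had 13.2 against 19.0 CPM before and 17.7 against 10.5 CPM following therapy. PCNA, the sliding clamp that binds DNMT1, stood at 59.9 against 55.9 CPM and 58.1 against 31.5 CPM. EHMT2, a histone H3 methyltransferase, stood at 65.1 against 46.3 CPM and 57.4 against 39.8 CPM. None of the 12 was called for response by edgeR or DESeq2.

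Among 13 other readers, the median log2 ratio of responder to non-responder was 0.24 before and 0.09 after therapy, and edgeR called 0 and DESeq2 called 2 for response. ZBTB38, a zinc finger reader of methylated CpG, was called higher by DESeq2, at 137 against 80.1 CPM before and 166 against 94.98 CPM following therapy. KDM2A, which binds unmethylated CpG, was called lower, at 40.0 against 89.8 CPM and 30.7 against 51.5 CPM. CXXC5, a CpG-binding protein known to restrain TET2, had 29.2 against 4.29 CPM before and 10.8 against 18.2 CPM following therapy, so its order was reversed between times. Of 10 NuRD partners of MBD2, HDAC1, a deacetylase, was called higher by DESeq2, at 289 against 133 CPM and 267 against 166 CPM. The list median was -0.07 before and 0.06 after therapy.

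Downstream of TET oxidation, the 10 base excision genes had median log2 ratios of 0.11 before and 0.49 after therapy, with 0 called by edgeR or DESeq2. TDG, the glycosylase that removes oxidised cytosines, stood at 32.5 against 28.7 CPM and 48.3 against 51.6 CPM. SMUG1 stood at 21.8 against 13.3 CPM and 18.2 against 11.1 CPM. Methylation also needs the methyl donor S-adenosylmethionine, and TET activity needs 2-oxoglutarate. The 14 genes of these pathways had medians of 0.88 before and 0.49 after therapy, against 0.04 and 0.02 for all genes, and 10 of 14 had the higher level in the responder before and after therapy, against 35.6% of all genes. DESeq2 called SHMT2, MTHFD1 and MAT2B higher in the responder libraries, and edgeR called 0. SHMT2, a mitochondrial enzyme of one-carbon supply, had 37.4 against 6.78 CPM before and 31.5 against 13.6 CPM following therapy. MTHFD1, a cytosolic enzyme of folate metabolism, stood at 56.8 against 19.2 CPM and 70.5 against 41.6 CPM. MAT2B, a regulatory subunit of the donor-making enzyme, stood at 317 against 162 CPM and 481 against 209 CPM.

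Along time, the members fell into those with like and those with opposite ratios in responder and non-responder libraries. UHRF2 was 1.59-fold and 1.74-fold higher after therapy, and MBD2 1.77-fold higher in both. UHRF1 was lower after therapy, 1.66-fold in the responder and 4.05-fold in the non-responder, and DNMT1 was 1.06-fold and 1.17-fold lower. TET1 was 1.44-fold lower after therapy in the responder, while in the non-responder its log2 ratio of 0.02 had an interval of -0.13 to 0.18.

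**Figure D5:**
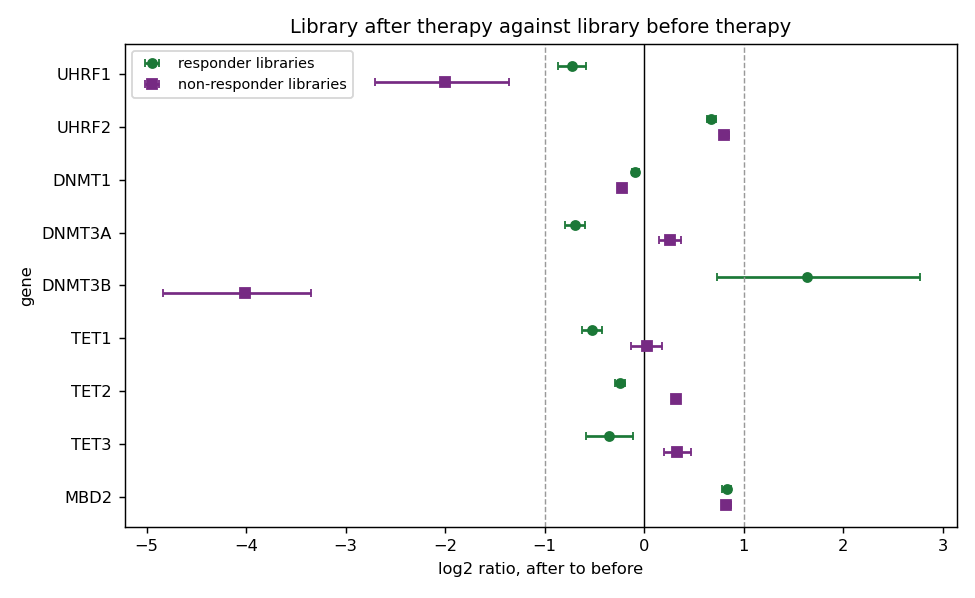
Log2 ratio of the library after therapy to the library before therapy for each gene, in responder (circles) and non-responder libraries (squares), with 95% intervals for counting error and dashed lines at 2-fold. UHRF2 and MBD2 lie between 0.67 and 0.83 in both, while DNMT3A, DNMT3B, TET2 and TET3 lie on opposite sides of 0.

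Of 8 members measured in the responder pair, 0 were at least 2-fold higher (10.6% of 17055 genes) and 0 at least 2-fold lower (10.5%) after therapy. In the non-responder pair 0 of 9 were at least 2-fold higher (19.1% of 17892 genes), and UHRF1 and DNMT3B were at least 2-fold lower (14.1%). The members' median log2 ratio of after to before was -0.30 in the responder and 0.26 in the non-responder, against 0.02 and 0.05 for all genes. In the additive model edgeR called 0 of 24113 genes for time, or 0%, with 2732 genes at an unadjusted p under 0.05, among them UHRF2 and MBD2. The fitted log2 ratio of after to before was 0.83 ± 0.179 (SE) for MBD2 and 0.74 ± 0.182 for UHRF2, each with an adjusted p of 0.409 by edgeR. DESeq2 called 1509 genes, or 6.26%, and MBD2 among the members (adjusted p = 0.0244), while UHRF2 had an adjusted p of 0.0567 by DESeq2. Monocyte and neutrophil markers were also higher after therapy, with median log2 ratios of 3.42 in the responder and 5.35 in the non-responder, and their part in the MBD2 and UHRF2 values was not tested.

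The genes most like the 3 members of widest range were found by the distance between log2 CPM profiles, centred on each gene's mean over the 4 libraries, among 17982 autosomal genes. For UHRF1 they were ZNF594, IL17RB, SKA3, DDX11-AS1 and MYO5B, at distances of 0.41 to 0.98. ZNF594, the closest, stood at 4.76 and 0.675 CPM before and 3.05 and 0.152 CPM after therapy in responder and non-responder. SKA3, a part of the complex that joins chromosomes to the spindle, stood at 1.42 and 0.0920 CPM before therapy. After therapy it stood at 0.691 and 0.0357 CPM in responder and non-responder. The non-responder levels of SKA3 are far below 1 CPM, so its likeness to UHRF1 rests on low counts. TET3 had closer neighbours, at distances of 0.17 to 0.21, with TRAF4, an adaptor of TNF receptor family signalling, at 3.44, 9.15, 2.44 and 11.3 CPM in the same order. ERMN stood at 4.65, 12.1, 3.65 and 17.3 CPM. The nearest gene to DNMT3B with a standard symbol was the pseudogene CDC42EP3P1, followed by GRIN2C, a glutamate receptor subunit, at 0.192, 3.39, 0.502 and 0.393 CPM. With 4 libraries, such likeness is a description of these profiles.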

How the data were processed

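Cells were sorted by flow cytometry and cDNA was made from 1 ng of RNA per library, per the labels' protocols. bcl2fastq 1.8.4, TopHat2 and hg38 are named in the submitters' processing notes. Which counter and which annotation release were used is not given in the sources used here, and the SMARTer kit does not mark strand. The deposited files hold raw counts per gene, per the file headers. Genes on other contigs (4146) and on Y, with XIST and TSIX (617), were left out, which leaves 59490, while totals include all counts.

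Groups came from the response and time labels. edgeR 4.0.16 (R 4.3.3) was run with filterByExpr, TMM factors, response and time as additive terms, and Benjamini-Hochberg adjustment over all genes. The common biological coefficient of variation was 0.66. The SE is the fitted ratio divided by the square root of F. With 1 library per group, the interaction of response and time was treated as error. P-values and SEs thus measure no spread between replicates or patients. DESeq2 1.42.0 and limma 3.58.1 were alternatives. The fit was run on simulated data, with its pass rule applied at a lower coefficient of variation than that of these data. That rule thus says nothing on recovery at the variation seen here. Ratios of 2 libraries used a prior count of 0.5, and fold values are ratios of CPM. The background for 2-fold counts was the genes reaching 1 CPM in one of the 2 libraries compared.

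Members and the 18 other lists were chosen with earlier results of these data known. Named genes are all members and up to 4 genes per list with the largest mean ratio over both times. The 5 genes most like each of 3 members also fall under this rule. Named outside it were HELLS, TDG, TOP2A, DNMT3L, DAZL, TDRD1, ASZ1, IFNG, TCF7, CDH1, KRT18 and FCGR3B. Not every gene that the rule takes is described. No sequence is printed: a human reference was not used here.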

Additional observations from a re-analysis of the deposited data

Results flagged for a closer look

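For 4 members the same contrast ran in opposite directions in different groups, with both counting intervals off 0, and the difference itself was not tested, since each group held 1 library. For the ratio of responder to non-responder, DNMT3A went from 0.37 before to -0.59 after therapy, a difference of -0.96 on the log2 scale. DNMT3B went from -4.28 to 1.37, a difference of 5.65, on counts of 11 to 174 per library. For the ratio of after to before, the non-responder pair differed from the responder pair by 0.96 for DNMT3A (0.26 against -0.70) and by -5.65 for DNMT3B (-4.02 against 1.63). The same differences were 0.56 for TET2 (0.32 against -0.24) and 0.68 for TET3 (0.33 against -0.35). For DNMT3A and DNMT3B both contrasts rest on the same 4 libraries, so each pair of differences is 1 observation.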

How the results depend on the processing

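Fitted response ratios kept their direction under every alternative run for UHRF1 (2.99 to 5.002), TET1 (0.65 to 1.17), TET2 (-1.18 to -0.86) and TET3 (-2.12 to -1.77). For these genes both responder libraries lay on the same side of both non-responder libraries, so leaving 1 library out could not reverse the ratio. The number of genes called depended on tool and filter: for response 903 by DESeq2, and for time 1509 by DESeq2, 2 by limma-voom, 2 with no filter beyond 1 count and 35 with at least 5 CPM in at least 2 libraries, against 0 by edgeR as reported. It stayed 0 (range 0 to 0) for response and time when each library was left out of a model without the other factor. In those models the response ratio reversed for DNMT1 (-0.06 to 0.16), UHRF2 (-0.66 to 0.18), DNMT3A (-0.45 to 0.24), DNMT3B (-3.39 to 0.80) and MBD2 (-0.63 to 0.31). DNMT3B turned without the non-responder library from before therapy. Without the non-responder library from after therapy DNMT1 (-0.064), UHRF2 (0.1792), DNMT3A (0.0625) and MBD2 (0.3143) turned. UHRF2 (0.0267) and MBD2 (0.2048) also turned without the responder library from before therapy, and DNMT3A (0.2401) without the one from after therapy. The time ratio reversed for UHRF1 (-4.46 to 1.66), DNMT3A (-0.51 to 0.07), DNMT3B (-3.17 to 1.15), TET1 (-0.79 to 0.39), TET2 (-0.65 to 0.65) and TET3 (-1.35 to 1.21). Without the responder library from before therapy UHRF1 (1.6577), DNMT3A (0.0052), TET1 (0.3858) and TET2 (-0.1826) turned. Without the non-responder library from after therapy UHRF1 (0.1525) and TET2 (-0.6484) turned, without the responder library from after therapy DNMT3A (0.0655) and TET3 (0.9296), and without the non-responder library from before therapy DNMT3B (1.1525) and TET3 (1.2121). Such a model leaves out the other factor, so the ratio then mixes response and time by construction. Near 0, the DNMT1 response ratio was -0.0279 with at least 5 CPM in at least 2 libraries. The TET2 time ratio was -0.0347 with library size only and -0.029 with at least 5 CPM in at least 2 libraries. The TET3 time ratio was 0.0003 with DESeq2 size factors, 0.0096 with no filter, 0.0012 by DESeq2, 0.0882 by limma-voom and 0.1898 without the response term. The members' median ratio before therapy was -0.08 with library size only. That scaling shifts every gene by 0.08 in the response ratio before therapy and by -0.10 in the responder's ratio of after to before. None of the members' ratios of 2 libraries whose interval left out 0 changed sign under other scaling or a prior count of 2, while, of those whose interval held 0, the DNMT1 ratio before therapy was 0.0613 and the TET1 ratio of after to before in the non-responder was -0.0139 with library size only. Genes at least 2-fold apart between the responder libraries made up 21.1% with at least 1 CPM and 13.2% with at least 5 CPM. No paired analysis was possible because each group held 1 library and the labels give no pairing.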

Other observations

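Lists of T cell genes whose methylation is known to change in effector CD8 cells were measured beside the members. The lists were chosen with earlier results of these data known, so their counts are no independent support. Of 10 effector genes that lose methylation, 9 had a higher level in the responder before and after therapy, as did 35.6% of 15937 genes, with median log2 ratios of 0.88 and 1.34 against 0.04 and 0.02 over all genes. DESeq2 called 7 of the 10 higher and 1, IFNG, lower, where it called 3.74% of all genes, while edgeR called 0. The responder libraries of the same pairs held less TET2 and TET3 and more TET1, and a link to the effector genes was not tested. Of 8 naive and memory genes that gain methylation, 3 were higher and 2 lower before and after therapy in the responder, against 35.6% and 29% of all genes, with medians of 0.39 and -0.20. CD27, a costimulatory receptor, was called higher by DESeq2, at 175 against 73.1 CPM before and 114 against 74.9 CPM following therapy, while TCF7 stood at 109 against 135 CPM and 188 against 209 CPM.

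Among 14 germline genes that promoter methylation is known to keep silent in somatic cells, 6 reached 1 CPM in any library, as did 18824 of 59490 genes in all. DAZL, TDRD1 and ASZ1 had 0 counts in all 4 libraries, which allows up to 3 counts in each. The summed level was 4.01 CPM for the responder and 5.81 CPM for the non-responder before treatment, and 7.33 and 18.2 CPM after therapy. TDRD9, a germline helicase of transposon silencing, had 510 counts in the non-responder after therapy, 8 in the responder before and 0 in the other libraries. DPPA4 stood at 1.43 CPM in the non-responder after therapy and at 0.0314 to 0.144 CPM elsewhere. PIWIL2 stood at 0.0240 CPM in the responder before therapy and at 1.13 to 3.01 CPM elsewhere. The non-responder library after therapy also held the most monocyte marker RNA, 8810 CPM, and the source of the germline transcripts was not tested.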
